A study of Mus musculus with 6 samples.

Results

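The phagocyte NADPH oxidase was examined through 6 of its subunit genes, Cybb, Cyba, Ncf1, Ncf4, Rac1 and Rac2, taken by symbol from the 51912 genes listed in each count file. All 6 genes had a row and passed the filter on low counts. The libraries came from GFP+ cells of the aorta-gonad-mesonephros (AGM), the embryonic region around the dorsal aorta, of MacGreen mouse embryos at E10.5. These animals carry the Csf1r-EGFP transgene, so that the promoter of the receptor for the macrophage growth factor decides which cells are green, and other Csf1r-active blood cells can be green as well. Cells were sorted by surface CD206, the mannose receptor, into GFP+CD206- cells (CD206neg here) and GFP+CD206+ cells (CD206pos). The 6 libraries are 3 pairs, with both populations of a litter in a pair, and 3 to 5 AGM were pooled for a library. No treatment or untreated control was part of the design.

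The oxidase moves electrons from NADPH across a membrane to oxygen and so makes superoxide, which phagocytes use against microbes and in signalling. Its catalytic subunit gp91phox (Cybb) sits in the membrane with its partner p22phox (Cyba), while the cytosolic subunits p47phox (Ncf1) and p40phox (Ncf4) and a Rac GTPase (Rac1 or Rac2) join them on activation. Loss of Cybb, Cyba, Ncf1 or Ncf4 function is known to impair the oxidative burst in chronic granulomatous disease.

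The proximal promoters of Cybb, Cyba and Ncf1, the 3 subunit genes matched in the RefSeq promoter table, are shown beside the transcript levels of these genes, given after them. They are the 150 bases before the RefSeq start of each gene (GRCm38.p6, minus strand, 5′ to 3′), and capitals mark a CCAAT box or an Sp1-type GC box (GGGCGG) on either strand. The windows are chrX:9469325-9469474 for Cybb, chr8:122432941-122433090 for Cyba and chr5:134229626-134229775 for Ncf1, and none of them overlapped an exon of the annotation. The Cybb window lies inside the span of the gene as counted, which has exons farther upstream.
Cybb: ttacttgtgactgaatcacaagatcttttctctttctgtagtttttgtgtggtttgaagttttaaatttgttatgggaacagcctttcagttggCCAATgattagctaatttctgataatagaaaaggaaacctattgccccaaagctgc
Cyba: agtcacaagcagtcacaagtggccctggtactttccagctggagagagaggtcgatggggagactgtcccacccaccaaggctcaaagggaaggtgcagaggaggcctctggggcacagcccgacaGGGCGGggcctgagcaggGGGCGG
Ncf1: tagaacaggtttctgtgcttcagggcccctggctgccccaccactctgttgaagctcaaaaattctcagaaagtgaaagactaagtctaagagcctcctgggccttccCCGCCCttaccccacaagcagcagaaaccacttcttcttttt
The Cybb stretch had a GC content of 35.3%, against 64.7% for Cyba and 50.7% for Ncf1. In the full 300-base windows (250 before and 50 after the start) the GC content was 35.3%, 60.7% and 54.0%, and the median of 32851 mouse windows was 52.7%. The CCAAT box of Cybb began 56 bases before the start, and 37.4% of all windows held CCAAT on either strand. Cyba held GGGCGG at 24 and 6 bases before the start, Ncf1 held it on the opposite strand 42 bases before it, and 35.7% of all windows held it. The letters GAGGAA, a core bound by the ETS factor PU.1, were searched on both strands as well. They were matched in Cybb alone among these 3 windows, on the opposite strand from base 10 after the start, outside the stretch shown, and in 28.3% of all windows. A match describes letters and does not show binding.

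Libraries held 16730846 to 18214283 reads in genes. Of 12668 genes tested with edgeR, 617 (4.87%) had an adjusted p below 0.05 and were called. In CD206pos 376 of these (2.97% of tested genes) were higher and 241 (1.90%) lower, and with library totals as the only scaling the split was 273 to 284. Mrc1, which encodes CD206, was at 51.6 to 119 CPM (counts scaled to library size, with TMM factors between libraries) in CD206neg and 1458 to 1792 CPM in CD206pos, which checks the sort. The macrophage genes Csf1r, Adgre1, Cx3cr1, Ptprc, Fcgr1, Mertk, C1qa and Cd68 had reads in all 6 libraries, with a summed level of 3448 to 4400 CPM in CD206neg and 5245 to 8254 CPM in CD206pos. Markers of granulocyte precursors (12 genes, among them Mpo, Prtn3, Elane and S100a8) summed to 1867 to 2879 CPM in CD206neg and 17.5 to 70.0 CPM in CD206pos, and blood progenitor markers (6 genes, among them Kit and Cd34) to 685 to 977 and 37.1 to 75.8 CPM. Monocyte markers (6 genes) summed to 743 to 1245 CPM in CD206neg and 1616 to 2516 CPM in CD206pos, most of it from F13a1 (504 to 911 and 1553 to 2498 CPM), while Chil3 was at 0 in all 6 libraries.

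The question was whether CD206pos and CD206neg cells differ in the transcripts of the oxidase. Cybb, for the catalytic subunit, was the only gene of these 6 called by edgeR: it was 2.63-fold lower in CD206pos. Its membrane partner Cyba was at 1.38 times its CD206neg level, Ncf4 at 0.71 times, Ncf1 at 1.02 times, Rac1 at 1.21 times and Rac2 at 0.88 times, and these 5 did not pass the test. The call of 1 of 6 subunit genes stands against 4.87% of all tested genes called, 1.90% as lower in CD206pos. The median log2 fold change of the 6 genes was -0.079, and that of all tested genes -0.004. The CPM of the populations did not overlap for 3 of the 6 (Cybb, Ncf4 and Rac2, each lower in CD206pos), against 24.6% of all tested genes, 11.8% in that direction and 12.8% in the other.

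**Figure D1:**
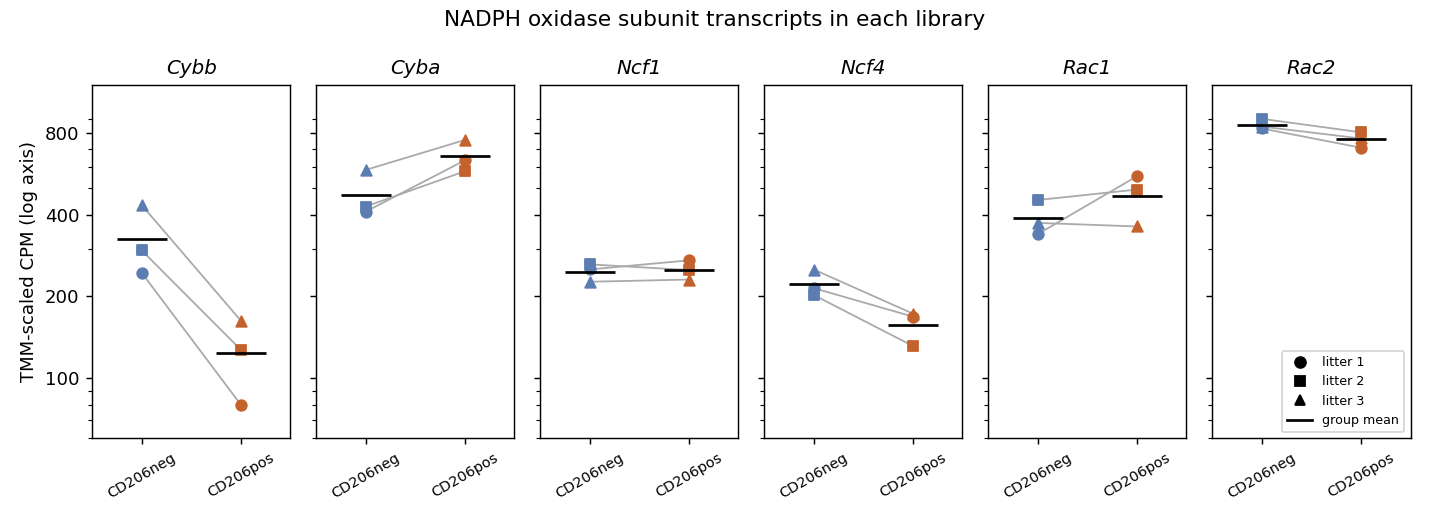
TMM-scaled CPM (log axis) of the 6 subunit genes in each library, with litters as symbols joined by grey lines and group means as black bars. Cybb falls in each litter, from 244 to 434 CPM in CD206neg to 79.9 to 163 CPM in CD206pos, while the Ncf1 values of the groups overlap.

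Cybb (ENSMUSG00000015340.10, GRCm38 chromosome X, 9435252 to 9487771, minus strand) encodes gp91phox, which binds NADPH and carries the haem groups that pass electrons to oxygen. Litters 1, 2 and 3 had 4484, 5099 and 7689 Cybb reads in CD206neg and 1307, 2221 and 2815 in CD206pos, which is 244, 295 and 434 CPM against 79.9, 127 and 163 CPM. Every CD206pos library lay below every CD206neg library, and litter 3 was the highest in either population. The group levels were 324 ± 98.0 CPM in CD206neg and 123 ± 41.6 CPM in CD206pos (SD, n = 3). The log2 fold change was -1.39 ± 0.29 (SE, 95% interval -2.06 to -0.73), with an adjusted p of 0.0331 in edgeR's quasi-likelihood test. Within litters Cybb was 3.06-fold, 2.32-fold and 2.66-fold lower in CD206pos. The call was lost on leaving out any CD206neg library, or the CD206pos library of litter 1 or of litter 2 (adjusted p between 0.0555 and 0.144, log2 fold change between -1.56 and -1.13) and kept without that of litter 3 (adjusted p = 0.0402). It was also lost without both libraries of litter 1, 2 or 3 (adjusted p = 0.0622, 0.302 and 0.0781).

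Summed markers of granulocyte precursors, a lineage known for the oxidase too, were lower in CD206pos, as given above, and 7 of the 12 listed genes had 0 reads in all CD206pos libraries. None of the 12 had 0 reads in all CD206neg libraries. Of the 7, however, Ctsg (0, 2 and 0 reads), Ngp (0, 250 and 0) and Camp (0, 140 and 57) were absent from some CD206neg libraries too. Megakaryocyte markers (5 genes) also summed to less in CD206pos, 1.28 to 9.97 CPM against 40.8 to 58.9 CPM. Most of the CD206neg sum came from Itga2b (mean 21.1 CPM) and Gfi1b (mean 23.3 CPM). Of 3 megakaryocyte markers tested, only Gfi1b was called. Gp1bb and Gp9 had CD206neg means of just 0.24 and 1.49 CPM. Ppbp went the other way, with a log2 fold change of 1.15 (adjusted p = 0.603 in edgeR). Endothelial markers (6 genes), at 31.2 to 57.1 CPM against 97.9 to 154 CPM, and the blood progenitor markers also summed to less in CD206pos. In edgeR 0 of the 6 endothelial markers were called, against 6 of the 6 blood progenitor markers. The largest part of the endothelial sum in CD206neg came from Pecam1 (mean 61.5 CPM). Mesenchymal markers (6 genes) stood apart in litter 3, where Cybb was highest: they summed to 74.1 CPM in its CD206neg and 60.8 CPM in its CD206pos library, against 1.83 to 8.98 CPM in the other 4 libraries, and without that litter the Cybb log2 fold change was -1.41. The part of any of these cells in the Cybb difference was not tested, and in these bulk libraries fewer cells of a type and less RNA per cell cannot be told apart. Within CD206neg the granulocyte precursor sum was 1867, 2689 and 2879 CPM in litters 1, 2 and 3, the same order as Cybb. Most of that sum was Mpo alone (1495, 1976 and 2281 CPM). The other listed genes did not all share the order: Fcnb did (5.39, 12.6 and 19.1 CPM), but Prtn3 did not (321, 379 and 341 CPM). Within CD206pos the granulocyte precursor sum was 70.0, 52.5 and 17.5 CPM, the reverse of the order of Cybb.

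Cyba (ENSMUSG00000006519.11, GRCm38 chromosome 8, 122424776 to 122432930, minus strand) encodes p22phox, which stabilises gp91phox and docks p47phox. Its CPM were 410, 428 and 584 in CD206neg and 633, 578 and 753 in CD206pos (litters 1, 2 and 3). The populations overlapped slightly, since CD206neg of litter 3 was above CD206pos of litter 2, but the CD206pos library was the higher in each litter, by 1.54, 1.35 and 1.29 times. The group levels were 474 ± 95.7 and 655 ± 89.4 CPM (SD, n = 3), a log2 fold change of 0.46 ± 0.18 (SE, 95% interval 0.07 to 0.86) with an adjusted p of 0.208 in edgeR. With the litter as a block the log2 fold change was 0.47 and the adjusted p 0.0497, so that 2 of 6 subunit genes passed, against 5.55% of all genes in that fit. The genes of the catalytic subunit and its partner had estimates of opposite sign.

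Ncf1 (ENSMUSG00000015950.13, GRCm38 chromosome 5, 134220053 to 134229625, minus strand) encodes p47phox, the organizer that is phosphorylated on activation and carries the cytosolic subunits to the membrane. It was at 251, 262 and 226 CPM in CD206neg and 271, 250 and 231 CPM in CD206pos. These values overlapped, with group levels of 247 ± 18.4 and 251 ± 20.4 CPM (SD, n = 3). The log2 fold change was 0.02 ± 0.13 (SE) with an adjusted p of 0.964 in edgeR, and its 95% interval reached from -0.28 to 0.33. A change of the size seen for Cybb lies outside that interval. The sign of the Ncf1 estimate turned under other scalings, to -0.064 with library totals. Of its 3663 exon bases 408 (11.1%) are shared with Gtf2ird2 on the opposite strand, and reads there are not assigned to either gene.

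Ncf4 (ENSMUSG00000071715.11, GRCm38 chromosome 15, 78244801 to 78262580, plus strand) encodes p40phox, which binds a phosphoinositide of phagosome membranes. It was at 214, 202 and 251 CPM in CD206neg and 168, 131 and 173 CPM in CD206pos. All CD206pos libraries lay below all CD206neg libraries, and the CD206neg level was 1.27, 1.54 and 1.45 times that of CD206pos within litters 1, 2 and 3. The group levels were 223 ± 25.4 and 158 ± 22.8 CPM (SD, n = 3), a log2 fold change of -0.50 ± 0.16 (SE, 95% interval -0.87 to -0.13). The adjusted p was 0.146 in edgeR and 0.0695 with the litter as a block. DESeq2 called the gene (adjusted p = 0.0483), in a fit that called 9.55% of all genes.

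The Rac GTPases switch the assembled oxidase on. Rac2 (ENSMUSG00000033220.6, GRCm38 chromosome 15, 78559169 to 78572783, minus strand) is largely restricted to blood cells, while Rac1 (ENSMUSG00000001847.14, GRCm38 chromosome 5, 143503634 to 143528036, minus strand) is expressed widely. Rac2 was at 830, 901 and 843 CPM in CD206neg and 705, 803 and 763 CPM in CD206pos. The populations did not overlap (858 ± 37.6 against 757 ± 49.3 CPM, SD, n = 3), with a log2 fold change of -0.18 ± 0.12 (SE, 95% interval -0.45 to 0.09, adjusted p = 0.512 in edgeR). Rac1 was at 339, 453 and 373 CPM in CD206neg and 553, 495 and 362 CPM in CD206pos. Its litters went different ways: the CD206pos library was 1.63 times the CD206neg library in litter 1, 1.09 times in litter 2 and 0.97 times in litter 3. The Rac1 log2 fold change was 0.28 ± 0.19 (SE, 95% interval -0.15 to 0.70, adjusted p = 0.531 in edgeR).

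**Figure D2:**
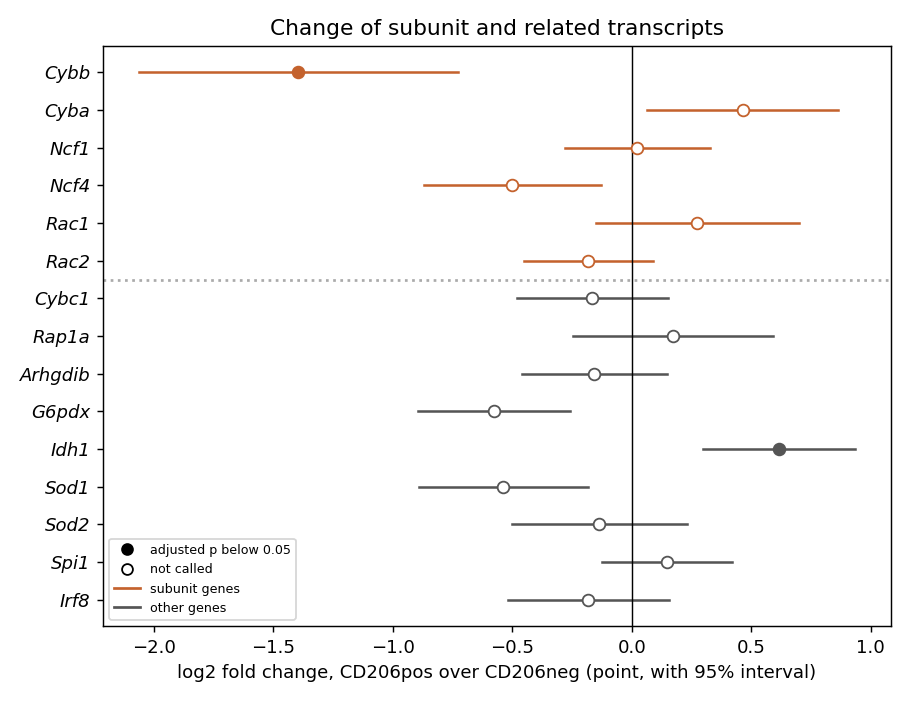
Log2 fold change of CD206pos over CD206neg with its 95% interval for the 6 subunit genes (orange) and 9 related genes (grey), with filled points at an adjusted p below 0.05. Cybb at -1.39 and Idh1 at 0.62 are the filled points, and the Cybb interval lies wholly below that of Ncf1.

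Because subunits work as an assembly, ratios of their reads were taken within each library, where scaling between libraries has no part. The Cybb to Cyba read ratio had log2 values of -0.75, -0.54 and -0.43 in CD206neg and -2.99, -2.18 and -2.21 in CD206pos (litters 1, 2 and 3). The highest CD206pos value lay well below the lowest CD206neg value, and the means differed by -1.89. The Ncf1 to Cybb ratio was higher in CD206pos by 1.44 (log2), the Ncf4 to Cybb ratio by 0.91 and the Ncf1 to Ncf4 ratio by 0.53, each with groups that did not overlap. The Rac2 to Rac1 ratio was lower by 0.45 in CD206pos and its groups overlapped, with 1.29, 0.99 and 1.18 in CD206neg and 0.35, 0.70 and 1.08 in CD206pos. An exact two-sided permutation test had 20 ways to label the libraries and did not keep the litters paired. This exact permutation test gave p = 0.1 for the first 4 ratios, the smallest value that 3 against 3 libraries allow. For Rac2 to Rac1 the same exact permutation test gave p = 0.2. Adjusted over the 5 ratios, the exact permutation p values were 0.125 and 0.2, so none passed. That test cannot reach 0.05 with 3 libraries a group. With the litter as a block, an exact permutation test gave an unadjusted p = 0.25 for each of the 5 ratios. That is the smallest value 3 litters allow, and any ratio that changed in the same direction in all 3 litters gets it. The blocked test therefore cannot separate the 5 ratios from each other or reach 0.05. These ratios share members and are not independent of each other.

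**Figure D3:**
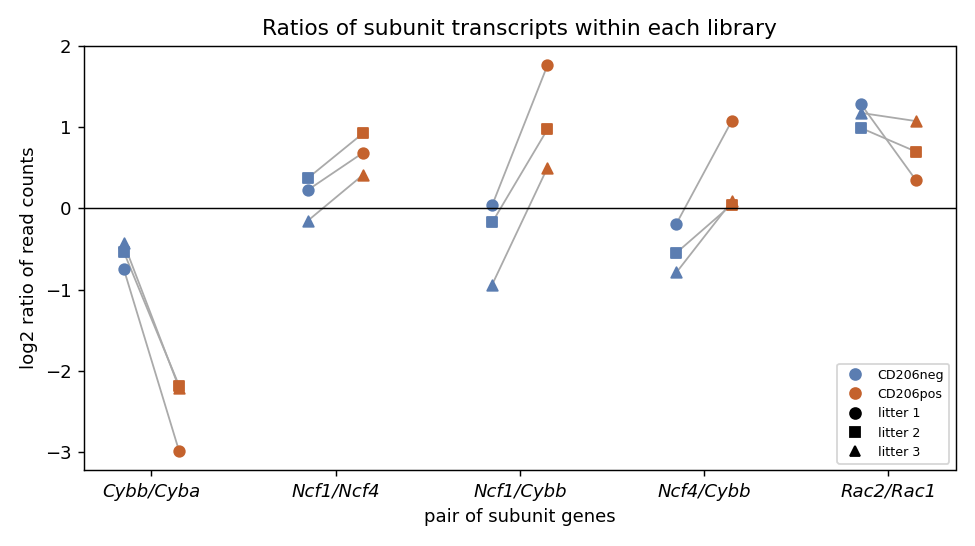
Log2 ratio of read counts for 5 pairs of subunit genes in each library, with CD206neg at the left and CD206pos at the right of each pair and litters joined by lines. The Cybb/Cyba ratio changes by -2.24, -1.65 and -1.78 in litters 1, 2 and 3.

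Levels of different genes were compared per length, as FPKM (scaled CPM per kilobase of exon). In CD206neg the order over the union of exons was Cyba (456 ± 92.1 FPKM), Rac2 (283 ± 12.4), Ncf4 (110 ± 12.6), Rac1 (86.4 ± 13), Ncf1 (67.3 ± 5.02) and Cybb (55.8 ± 16.9). In CD206pos it was Cyba (630 ± 86.1 FPKM), Rac2 (249 ± 16.3), Rac1 (105 ± 21.9), Ncf4 (78.0 ± 11.3), Ncf1 (68.5 ± 5.56) and Cybb (21.2 ± 7.16), with SD and n = 3 throughout. In CD206neg the library values of Ncf4 and Rac1 overlapped, and so did those of Ncf1 and Cybb. In CD206pos Rac1 overlapped Ncf4 and Ncf4 overlapped Ncf1, while Cybb, at 13.8 to 28.0 FPKM, lay below every other subunit gene in every library. Cybb stood at 12.1 ± 1.33% of the Cyba level per length in CD206neg and 3.36 ± 0.95% in CD206pos (SD, n = 3), although the proteins pair in the membrane.

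The place of Rac1 in this order depends on which bases are counted. Of its 4496 exon bases 2309 (51.4%) are shared with Daglb, a lipase gene on the opposite strand, and reads over shared bases are not assigned by the counting used. Over the 2187 unshared bases Rac1 was at 178 ± 26.6 FPKM in CD206neg and 215 ± 44.9 FPKM in CD206pos, the third in either population. The Rac1 level per length was then 62.6 ± 6.60% of that of Rac2 in CD206neg and 86.8 ± 21.6% in CD206pos, (SD, n = 3). Over all exon bases the percentages for litters 1, 2 and 3 were 27.6, 33.9 and 29.9 in CD206neg and 53.0, 41.6 and 32.0 in CD206pos. In CD206pos its unshared level, 165 to 253 FPKM, overlapped that of Rac2, 232 to 265 FPKM.

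**Figure D4:**
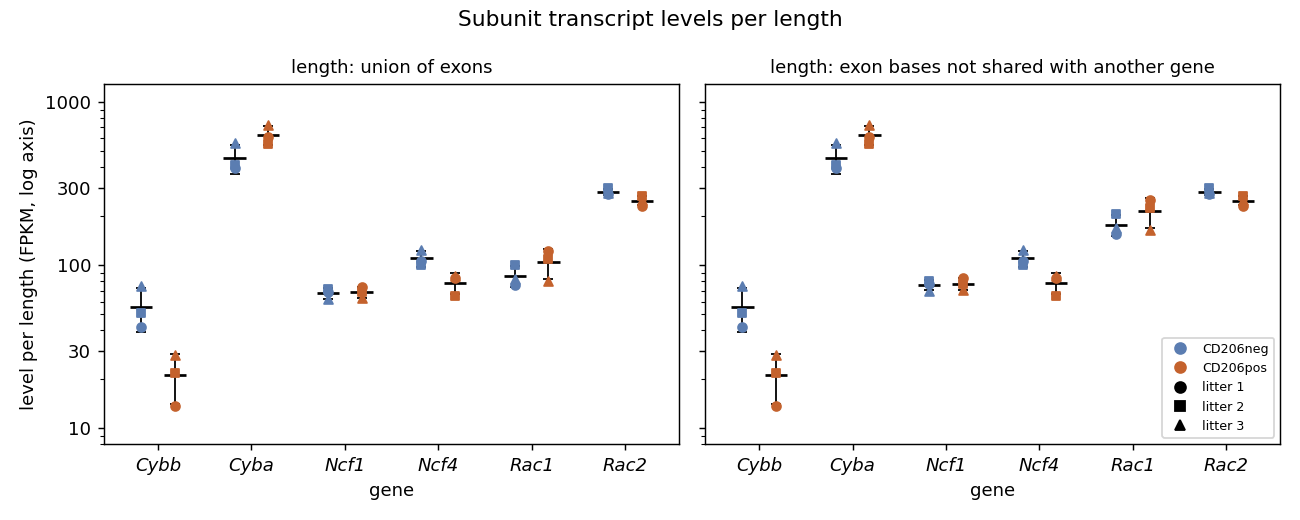
Level per length (FPKM, log axis) of the 6 subunit genes over the union of exons (left) and over exon bases not shared with another gene (right), with symbols for libraries, black bars for means and whiskers for SD. Cyba has the highest and Cybb the lowest mean in either panel, and Rac1 moves from 86.4 to 178 FPKM in CD206neg.

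Other parts of the oxidase showed no call among 4 tested of 13 listed genes in edgeR's test. None of the 4 had an unadjusted p under 0.05 (0 genes, against 17.6% of all tested), and DESeq2 and limma-voom called 0. Cybc1, a chaperone that gp91phox needs to reach the membrane, had 246 ± 26.8 CPM in CD206neg against 220 ± 14.6 CPM in CD206pos (SD, n = 3, adjusted p = 0.643). Its log2 fold change of -0.16 had a 95% interval of -0.48 to 0.15, which ends above that of Cybb. Rap1a, a small GTPase found with the cytochrome, was at 50.8 ± 2.79 and 57.3 ± 7.38 CPM (adjusted p = 0.73). The voltage-gated proton channel gene Hvcn1, whose product offsets the charge that the oxidase moves, had only 8, 16 and 31 reads in CD206neg and 1, 22 and 32 in CD206pos. The catalytic paralogs Nox3, Duox1 and Duox2 had 0 reads in all 6 libraries, Nox1 had 1 read in CD206neg of litter 1 and 10 in CD206pos of litter 3, and Nox4 had 29 reads in CD206neg of litter 3 alone. Cybb, with 1307 reads or more, thus had the most reads of these catalytic genes in every library. With 0 reads, a level of up to 0.16 to 0.18 CPM (3 reads) is allowed by counting error alone.

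Of 27 genes of Rac activation and oxidase priming none was called by edgeR, against 4.87% of all genes, with 5 at an unadjusted p under 0.05 and a median log2 fold change of -0.017. DESeq2 called 2 of them, Bcr and Pak1, and limma-voom, which called 6.43% of all genes, called Bcr. Bcr, which switches Rac off, was at 8.93 ± 1.45 and 1.64 ± 0.84 CPM (SD, n = 3, adjusted p = 0.0513 in edgeR, 0.00201 in DESeq2), with a call in 6 of the 10 alternatives that keep all libraries, and it was named after its value was seen. Pak1, a kinase that Rac activates, was at 149 ± 17.3 and 99.2 ± 17.6 CPM (adjusted p = 0.122 in edgeR, 0.035 in DESeq2), also named after its value was seen. Arhgdib, the inhibitor that holds Rac in the cytosol of blood cells, was at 1620 ± 201 and 1454 ± 89.2 CPM (adjusted p = 0.643).

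Of 7 genes that supply NADPH, 6 were tested and 1 was called, against 4.87% of all tested genes. Idh1, the cytosolic isocitrate dehydrogenase, rose 1.53-fold from 177 ± 19.6 to 271 ± 16.1 CPM (SD, n = 3, log2 fold change 0.62 ± 0.14, SE, adjusted p = 0.0432 in edgeR). It was higher in CD206pos in each litter, but the call was lost without any of the 6 libraries (adjusted p between 0.0627 and 0.181), with library totals, upper-quartile scaling or the filter at 1 read, and without globin, mitochondrial and ribosomal protein genes (adjusted p between 0.0506 and 0.0774). G6pdx, the entry enzyme of the pentose phosphate pathway and the main NADPH source of the burst, was at 385, 435 and 372 CPM in CD206neg and 272, 292 and 235 CPM in CD206pos. These groups did not overlap, and the G6pdx log2 fold change of -0.58 ± 0.14 (SE) had an adjusted p of 0.0536 in edgeR and 0.0271 with the litter as a block. It also passed under 7 more alternatives, DESeq2 (adjusted p = 0.00221) and limma-voom (adjusted p = 0.0294) among them. G6pdx did not pass in edgeR with any library left out (adjusted p between 0.0833 and 0.215) or with any litter left out (adjusted p between 0.141 and 0.342).

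Of 9 enzymes that act on superoxide and peroxide, 6 were tested and 1 was called as lower, against 1.90% of all tested genes in that direction. Mpo, the granule enzyme that turns peroxide into hypochlorous acid, fell from 1917 ± 396 to 18.1 ± 13.2 CPM, 106-fold (SD, n = 3, log2 fold change -6.73, adjusted p = 0.00202 in edgeR), and it is also a granulocyte precursor marker. Its call was lost without both libraries of litter 2 (adjusted p = 0.0811). The cytosolic superoxide dismutase gene Sod1 was at 284 ± 26.3 and 196 ± 29.6 CPM (adjusted p = 0.104 in edgeR, 0.0169 with DESeq2, 0.0425 with limma-voom), and the mitochondrial Sod2 at 143 ± 11.2 and 130 ± 19.3 CPM (adjusted p = 0.762). Nos2, whose product makes nitric oxide, had 0 reads in all 6 libraries.

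Of 10 transcription factor genes known for acting on subunit promoters, 9 were tested and 1 was called as lower, against the same 1.90%. Hoxa9, a progenitor homeobox factor, had 339, 377 and 333 reads in CD206neg and 0, 10 and 0 in CD206pos (log2 fold change -6.61 ± 1.03, SE, adjusted p = 0.00961 in edgeR), and it no longer passed without the CD206neg library of litter 2 (adjusted p = 0.0716) or without any litter (adjusted p between 0.0638 and 0.0753). Spi1, which encodes PU.1, was at 692 ± 48.3 and 767 ± 31.7 CPM (SD, n = 3), with a log2 fold change of 0.15 ± 0.12 (SE, adjusted p = 0.619). Irf8, its partner in myeloid cells, was at 414 ± 61.9 and 365 ± 25.3 CPM, with a log2 fold change of -0.18 ± 0.15 (SE, adjusted p = 0.621). The 95% intervals of Spi1 (-0.12 to 0.42) and Irf8 (-0.52 to 0.15) lay above that of Cybb. PU.1 is known to bind the promoter region of Cybb, and the part of either factor in the Cybb difference was not tested.

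Among 8139 tested genes with at least 10 CPM, the profile over the 6 libraries that was nearest to Cybb belonged to Selplg, the selectin ligand of leukocytes, with a root mean square distance of 0.18 on the log2 (CPM + 1) scale after centring. Mmp19, a metalloproteinase gene, came next at 0.26, and Cybb itself varied by 0.80 around its mean on that scale. Selplg was at 106, 141 and 186 CPM in CD206neg and 40.5, 59.8 and 101 CPM in CD206pos, so that litter 3 was the highest in either population, as for Cybb. The nearest profile to Cyba was that of the peroxisome gene Pex2 at 0.028, with Trappc6a at 0.064. For Ncf1 they were Slc10a7 (0.027) and Cops7a (0.037), for Ncf4 Cenpm (0.076) and Tmem138 (0.079), for Rac1 Arhgap17 (0.068) and Tmem68 (0.070), and for Rac2 Kif15 (0.035) and Wdhd1 (0.040). Among the subunit genes themselves Ncf1 and Rac2 were the closest pair (0.16), and Cybb lay farthest from Rac1 (0.99) and from its own partner Cyba (0.98). With 6 libraries such distances describe these samples alone.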

How the data were processed

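The authors deposited raw read counts per gene for each library, made with featureCounts 1.5.2 on exons of the GENCODE vM14 annotation with no option for strand, per the file headers. Reads over exons of more than 1 gene are not assigned by that program's defaults. Tools listed in the submitters' processing notes are STAR 2.3, Subread, featureCounts and FastQC, with mm10 and GRCm38.p5 as builds. The tissue was dissociated in collagenase (45 min, 37 °C), per the labels' protocols. Symbols matched 51633 of 51912 identifiers (GENCODE M21), and coordinates are GRCm38, 1-based. Promoters are RefSeq sequences (GRCm38.p6) and were found for 3 of the 6 genes (Cybb, Cyba and Ncf1).

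The test was that of edgeR 4.0.16 on R 4.3.3 (filterByExpr, TMM, robust quasi-likelihood F test, no litter block, Benjamini-Hochberg adjustment over 12668 genes). CPM relate to reads of the tested genes. Titles number the AGM samples, and the design text speaks of 3 litters, so libraries with 1 number were taken as a pair; deviations from group means correlated at 0.089, 0.039 and 0.18. P-values of the main fit rest on the spread between libraries within a group, drawn toward that of other genes, and do not use the pairing. The fit was also run on simulated data without litter pairing. The outcome is not given here, and no result above rests on it. Intervals and floors cover counting error only where they come from counts.

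The subunit genes and the lists were chosen with earlier results of these data known. Named genes are the 6 subunit genes, Mrc1 and Csf1r, called genes of the 5 pathway lists, uncalled ones with a stated role at the enzyme, and the 2 nearest profiles per subunit gene. 1 gene of the lists is not reported here. Alternatives were the litter block, RLE, total and upper-quartile scaling, a looser filter (at least 1 read), a stricter filter (5 CPM in 3 libraries), DESeq2 1.42.0, limma-voom (limma 3.58.1), no robust estimation, fewer genes, and leaving out libraries and litters. The lengths without shared bases were added after seeing the data.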

Additional observations from a re-analysis of the deposited data

How the results depend on the processing

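The Cybb log2 fold change stayed below 0 in all 19 alternatives, between -1.67 and -1.13 with a library left out and between -1.51 and -1.33 without a litter (-1.41 without litter 3), where its adjusted p was 0.0622 to 0.302; the other 10 alternatives kept the call. With the litter as replicate block Cyba passed (0.47) and so did G6pdx and the macrophage marker Cx3cr1 (adjusted p = 0.0131, 0.0934 without the block). In the marker lists Ccr2 (monocyte) lost its edgeR call with that block (adjusted p = 0.0771, 0.0451 without the block). Tek (endothelial) gained one (adjusted p = 0.0456, 0.0664 without the block). With the block no other call changed among the subunit, pathway and marker genes reported. The genes named as nearest profiles were not looked up in the alternatives. Ncf4 passed with DESeq2 (-0.51). The Ncf1 estimate was -0.0043 with upper-quartile scaling, -0.064 with library totals, -0.0069 with limma-voom, -0.0068 without globin, mitochondrial and ribosomal protein genes, -0.041 to 0.071 without a library and -0.023 to 0.036 without a litter (-0.013 without litter 3).

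DESeq2 called 1210 genes in all; 190 to 561 were called without a library, and 307, 3 and 153 without litters 1, 2 and 3. Of the pathway lists 3 genes were called, 5 with the stricter filter, 7 with DESeq2, 6 with limma-voom, 1 to 2 without a library and 1, 0 and 1 without litters 1, 2 and 3. Fewer libraries also lower the power. Over the longest transcript Cybb stood at 10.6% of Cyba in CD206neg; over unshared bases Rac1 stood at 62.6% and 86.8% of Rac2 in CD206neg and CD206pos. The ratios kept their sign in all alternatives run, and percents from TPM were equal by construction. With 3 litters, Ncf4 passed with DESeq2 alone and Cyba with the litter block alone. Whether these libraries can detect differences of the size of the Ncf4 or Cyba estimate was not tested.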
